A study of Mus musculus with 3 samples.

Results

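Transcripts of 10 secreted cytokines and chemokines were followed in cultured adult mouse cardiomyocytes (ACMs): Ccl2, Ccl7, Il6, Il33, Cxcl1, Cxcl12, Cx3cl1, Csf1, Lif and Il15. They are 10 of the 56748 genes of the count table and were taken from it by gene symbol, and each symbol was found. The genes were chosen by their known function and by their measured counts and fold changes in these same libraries, those of OSM-treated ACMs among them, so the changes given for them are a description and not an independent result. ACMs were isolated from ventricles of WT mice aged 8 to 10 weeks, male and female, and were plated and then held in serum-free M199 medium with 0.1% BSA and 10 mM 2,3-butanedione monoxime, an inhibitor of contraction. They received vehicle (0.1% BSA), 10 ng/mL mouse oncostatin-M (OSM) or 10 ng/mL human IL-6 for 16 h. RNA was pooled within each condition before RNAseq, so there was 1 library per condition, with 24939980 counts with vehicle, 26362446 with IL-6 and 30773001 with OSM. The number of hearts in a pool and the share of each sex were not given in the sources used here. With 1 library per condition there is no spread between replicates, no test was possible, and each comparison is between libraries.

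OSM, IL-6 and LIF belong to the gp130 family, whose receptors share the gp130 chain (Il6st) and activate Janus kinases and the transcription factor STAT3. Chemokines are small secreted proteins that direct the migration of leukocytes through G protein-coupled receptors, CCL2 and CCL7 acting mainly on monocytes and CXCL1 on neutrophils. IL-33, IL-15 and CSF1 are cytokines of tissue cells that act on innate lymphoid cells, on natural killer and memory T cells, and on macrophages. In the heart, several of these ligands can be made by cardiomyocytes, fibroblasts, endothelial cells and macrophages after injury. STAT3, C/EBP, AP-1 and NF-kB factors are known to act on the promoters of many cytokine genes, and short AU-rich elements in the 3′ UTR shorten the life of many cytokine transcripts.

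The 250 bases before the transcript start are shown for the 4 genes with the highest fold changes with OSM against vehicle, for Cxcl1 as a chemokine gene that was not called, and for Csf1, which had the most counts of the 10. The sequences are from GRCm39 and read 5′ to 3′ on the strand of the gene, up to the last base before the start of the GENCODE M39 canonical transcript, which need not be the gene start of the deposited table. Capitals mark matches, on either strand, to the letters of 6 motifs: STAT (TTCNNNGAA), C/EBP (TTGCNNAA), AP-1 (TGANTCA), CRE (TGACGTCA), kappaB and the TATA box (TATAAA).
Ccl2 (chr11:81926147-81926396, plus strand): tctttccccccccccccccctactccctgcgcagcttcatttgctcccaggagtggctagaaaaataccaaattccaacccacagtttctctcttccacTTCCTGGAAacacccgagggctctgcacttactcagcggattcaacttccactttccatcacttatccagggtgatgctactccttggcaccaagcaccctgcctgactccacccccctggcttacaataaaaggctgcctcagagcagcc
Ccl7 (chr11:81936282-81936531, plus strand): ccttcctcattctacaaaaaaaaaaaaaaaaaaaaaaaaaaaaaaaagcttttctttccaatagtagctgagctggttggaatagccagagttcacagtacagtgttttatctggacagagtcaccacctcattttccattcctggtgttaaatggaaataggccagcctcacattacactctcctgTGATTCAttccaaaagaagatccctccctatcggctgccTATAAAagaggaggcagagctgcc
Il6 (chr5:30217862-30218111, plus strand): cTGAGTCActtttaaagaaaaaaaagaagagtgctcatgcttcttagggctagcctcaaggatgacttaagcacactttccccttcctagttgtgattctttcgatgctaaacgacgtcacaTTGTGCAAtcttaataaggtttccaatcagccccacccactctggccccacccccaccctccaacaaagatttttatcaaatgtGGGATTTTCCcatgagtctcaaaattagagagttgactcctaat
Il33 (chr19:29902233-29902482, plus strand): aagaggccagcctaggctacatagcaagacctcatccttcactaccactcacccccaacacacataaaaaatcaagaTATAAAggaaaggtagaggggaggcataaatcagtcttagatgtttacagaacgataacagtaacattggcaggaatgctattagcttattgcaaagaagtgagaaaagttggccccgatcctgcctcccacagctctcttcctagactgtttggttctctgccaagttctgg
Cxcl1 (chr5:91038844-91039093, plus strand): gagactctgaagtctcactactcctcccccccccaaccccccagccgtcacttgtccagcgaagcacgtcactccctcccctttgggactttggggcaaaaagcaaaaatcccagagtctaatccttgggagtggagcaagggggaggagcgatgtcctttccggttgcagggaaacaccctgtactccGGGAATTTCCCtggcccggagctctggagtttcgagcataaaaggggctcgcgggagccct
Csf1 (chr3:107667807-107668056, minus strand): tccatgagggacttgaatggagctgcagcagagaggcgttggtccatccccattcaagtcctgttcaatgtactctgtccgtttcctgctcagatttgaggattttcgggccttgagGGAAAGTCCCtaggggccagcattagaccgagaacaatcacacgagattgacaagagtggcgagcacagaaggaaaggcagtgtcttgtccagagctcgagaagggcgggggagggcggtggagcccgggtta

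The matches differed from gene to gene. Ccl2 had a STAT match, TTCCTGGAA, 151 to 143 bases before the start. Ccl7 had an AP-1 match 63 to 57 bases and a TATA box match 24 to 19 bases before the start. Il6 had an AP-1 match at 249 to 243, a C/EBP match at 128 to 121 and a kappaB match, GGGATTTTCC, at 44 to 35 bases before the start. Il33 held only a TATAAA, at 173 to 168 bases, which is farther from the start than a TATA box usually lies. Cxcl1 had a pair of overlapping kappaB matches between 61 and 51 bases before the start, and Csf1 had 1 kappaB match at 133 to 124. Lif, whose sequence is not shown, had an AP-1 match at 217 to 211 and a kappaB match at 167 to 158, and Cxcl12, Cx3cl1 and Il15 had no match.

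Among the upstream regions of the same length of 21770 protein-coding genes, 7.70% held the STAT motif, 9.34% the C/EBP motif, 6.17% the AP-1 motif, 1.69% the CRE, 7.62% the kappaB motif and 11.9% the TATA box. Of the 10 genes, 4 held a kappaB match, 3 an AP-1 match, 2 a TATA box match, 1 a STAT match, 1 a C/EBP match and 0 a CRE. The matches are counts of letters in a short window and do not show that a factor bound there.

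**Figure D1:**
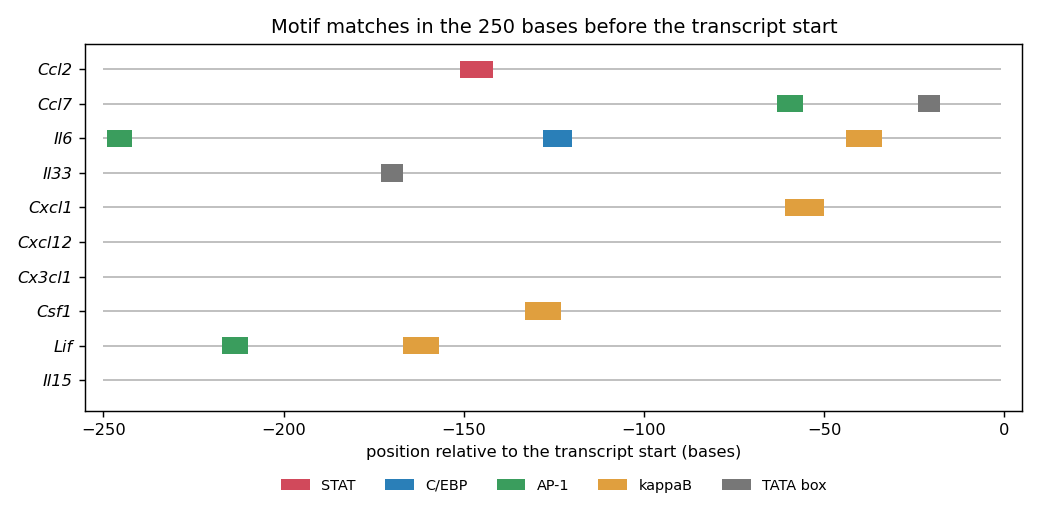
Matches to the motifs in the 250 bases before the transcript start, with the position relative to the start in bases on the x axis and 1 line per gene. Coloured blocks are matches on either strand. Cxcl12, Cx3cl1 and Il15 have none, and the only STAT match is that of Ccl2.

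In vehicle-treated ACMs, the levels of the 10 transcripts spanned a wide range. Csf1, the growth factor of macrophages, stood far above the others at 38.5 fpkm (95% counting interval 37.5 to 39.6), and its 5148 counts made up 88.3% of the 5827 counts of all 10 genes. Il15 followed at 3.27 fpkm (2.82 to 3.77), Cx3cl1 at 2.29 (2.01 to 2.61), Cxcl12 at 0.943 (0.815 to 1.08), Cxcl1 at 0.569 (0.375 to 0.828) and Ccl2 at 0.486 (0.266 to 0.816). Lif had 0.164 fpkm (0.0969 to 0.259), Il33 0.0822 (0.0302 to 0.179) and Il6 0.0651 (0.0177 to 0.167), and Ccl7 had 0 counts, which allows up to 3 counts or 0.120 CPM. Csf1, Il15 and Cx3cl1 were apart from their neighbours in this order, whereas the counting intervals of Cxcl12 and Cxcl1, of Cxcl1 and Ccl2, and of all neighbours from Lif to Ccl7 overlapped. These intervals and floors cover counting error only, since reads that carry no molecular identifiers can be PCR copies of 1 molecule. In libraries of pooled RNA, fewer cells of a type and less RNA per cell cannot be told apart.

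With OSM the order changed below the first place. Csf1 was again first at 46.3 fpkm (45.3 to 47.4), and Cx3cl1 at 2.36 (2.09 to 2.65), Il15 at 2.27 (1.92 to 2.65), Ccl2 at 1.77 (1.35 to 2.27) and Ccl7 at 1.59 (1.12 to 2.18) formed a run of overlapping neighbours. Cx3cl1 and Il15, which were apart with vehicle, thus changed places within overlapping intervals, and Ccl7 moved from the last place to the fifth. Cxcl12, Cxcl1, Il33 and Il6 followed between 0.901 and 0.579 fpkm with overlapping intervals, and Lif was last at 0.0770 fpkm (0.0369 to 0.142), apart from Il6. With IL-6, Csf1, Il15 and Cx3cl1 held the first places at 37.4, 3.75 and 1.93 fpkm, and Lif, Il33 and Il6 the last, with Il6 at 0 counts.

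**Figure D2:**
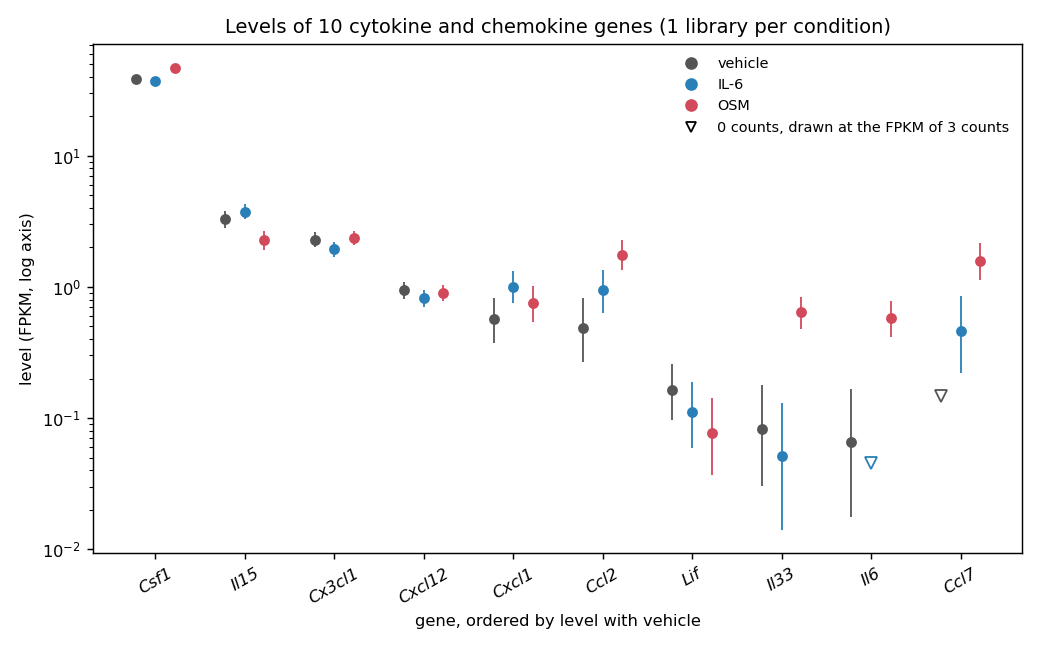
Level of each gene in fpkm on a log axis in the 3 libraries, with genes ordered by their level with vehicle. Points are deposited values, bars are exact 95% Poisson intervals of the counts, and open triangles mark 0 counts. Csf1 lies far above the other genes in all libraries, and Ccl7, Il6 and Il33 are near the detection limit with vehicle and between 0.579 and 1.59 fpkm with OSM.

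OSM-treated ACMs were compared with vehicle-treated ACMs to describe the response to this cytokine. Ccl2, Ccl7, Il6 and Il33 were called higher, none of the 10 was called lower, and 6 were not called. A gene was called when the whole 95% interval of its log2 fold change, from the counts scaled with TMM factors, lay beyond 2-fold. By this rule 3.74% of the 15537 genes compared were called higher and 5.43% lower. All 10 genes had the 10 counts over the pair that were required, 7 fold changes were above 0 and 3 below, and the median log2 fold change was 0.33, against 0.00 for all genes compared. Since the OSM and vehicle values helped to choose these genes, nothing is read from the share of calls.

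The monocyte chemokine genes Ccl2 and Ccl7 lie next to each other on chr11, at 81926397 to 81928279 and 81936538 to 81938351 (GRCm39, plus strand, 3 exons each), 8258 bases apart. Ccl2, whose product is the main ligand of the monocyte receptor CCR2, had 14 counts with vehicle, 29 with IL-6 and 60 with OSM. OSM gave a 3.62-fold higher level, 1.86 on the log2 scale (1.00 to 2.81), with a lower limit just past 2-fold. Ccl7, a ligand of CCR1, CCR2 and CCR3, had 0 counts with vehicle, 10 with IL-6 and 38 with OSM, and was at least 10.7-fold higher with OSM against a floor of 3 counts, with a counting interval from 3.05 upward on the log2 scale. Both genes were lowest with vehicle, intermediate with IL-6 and highest with OSM. The neighbouring chemokine genes Ccl11 and Ccl12, which attract eosinophils and monocytes, had 0 counts in all libraries, and Ccl8 had 0 counts with vehicle, 8 with IL-6 and 2 with OSM.

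The call of Ccl2 depends on the processing. In the comparison of OSM with vehicle, shorter genes had higher fold changes. The Spearman correlation of log2 fold change and gene length was -0.52 across 9445 protein-coding genes with a mean of at least 100 counts. It runs across genes of the same libraries, which are not independent. Genes of the length of Ccl2 had a median of 0.51 on the log2 scale, and Ccl2 was 1.35 above it (0.49 to 2.30), no longer past 2-fold. In addition, 61.4% of the genes with 1 to 19 counts in the vehicle library had an even count, and 60.6% and 62.9% did with IL-6 and OSM, whereas the share was 49.2% to 50.8% among genes with at least 100 and under 500 counts. Whether both ends of a read pair were counted separately is not given in the sources used here. With the counts divided by 2 for the interval, chosen after seeing the data, Ccl2 reached from 0.64 to 3.29 and was not called, whereas Ccl7 (lower limit 1.98), Il6 (1.12 to 6.29) and Il33 (1.26 to 5.32) still were, against 2.17% of all genes.

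Il6 and Il33 had few counts or none without OSM. Il6, the gene of the gp130 cytokine IL-6 (chr5:30218112-30224979, plus strand, 5 exons), had 4 counts with vehicle, 0 with IL-6 and 42 with OSM. It was 8.88-fold higher with OSM than with vehicle (log2 3.15, 1.69 to 5.09). Il33 encodes a nuclear alarmin of the IL-1 family that is released from damaged cells and binds ST2 (chr19:29902514-29938118, plus strand, 8 exons). Il33 had 6 counts with vehicle, 4 with IL-6 and 55 with OSM, and was 7.75-fold higher (log2 2.95, 1.74 to 4.46). For both genes the vehicle and IL-6 libraries were near the floor of 3 counts and the OSM library was apart from them, although the level with OSM was still only 0.579 fpkm for Il6 and 0.638 fpkm for Il33. Relative to genes of like length, the log2 fold changes were 2.91 for Il6 and 2.70 for Il33, and that of Ccl7 was at least 2.89.

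Csf1, which sustains the survival and growth of macrophages through CSF1R, had 5148 counts with vehicle, 5347 with IL-6 and 7307 with OSM (chr3:107648364-107667785, minus strand). With OSM it was 1.20-fold higher (log2 0.26, 0.21 to 0.32), and the interval excludes both no difference and 2-fold. Of the 15537 genes compared, 5186 had an interval wholly above 0. The log2 fold change of Csf1 was 0.20 with total counts and 0.37 relative to genes of like length. The direction was thus the same and the size depended on the scaling. Csf1 made up 88.3%, 88.1% and 89.1% of the counts of the 10 genes with vehicle, IL-6 and OSM. The other 9 genes together had 679 counts with vehicle, 725 with IL-6 and 897 with OSM, before scaling for depth.

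The other chemokine genes differed little. Cxcl1, a ligand of the neutrophil receptor CXCR2, had 27 counts with vehicle, 51 with IL-6 and 42 with OSM, and differed by 0.40 on the log2 scale with OSM (-0.34 to 1.15). Cxcl12, the ligand of CXCR4 that retains blood progenitors in their niche, had 195, 182 and 220 counts in the same order of libraries, with a log2 fold change of -0.07 (-0.35 to 0.22) with OSM. Cx3cl1, a membrane-anchored chemokine that is shed by ADAM10 and ADAM17, had 228, 206 and 277 counts and a log2 fold change of 0.04 (-0.22 to 0.30). For Cxcl12 and Cx3cl1, the intervals thus exclude a 2-fold difference in either direction, whereas that of Cxcl1 does not. Relative to genes of like length, Cxcl1 was at 0.04 (-0.70 to 0.79), Cxcl12 at 0.22 (-0.07 to 0.51) and Cx3cl1 at -0.04 (-0.29 to 0.22).

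Il15 and Lif had lower values with OSM. Il15, which is presented by IL15RA to natural killer and T cells, had 187 counts with vehicle, 230 with IL-6 and 153 with OSM, and the difference between OSM and vehicle was -0.53 on the log2 scale (-0.85 to -0.22). Its interval excludes both no difference and a 2-fold drop, and relative to genes of like length it was -0.83 (-1.14 to -0.51). Lif, a gp130 cytokine that signals through LIFR, had 18, 13 and 10 counts, and its log2 fold change of -1.09 (-2.37 to 0.10) could not be told from no difference at this depth. Il15 was the only 1 of the 10 whose whole interval lay below 0. Of the 15537 genes compared, 5137 had such an interval.

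**Figure D3:**
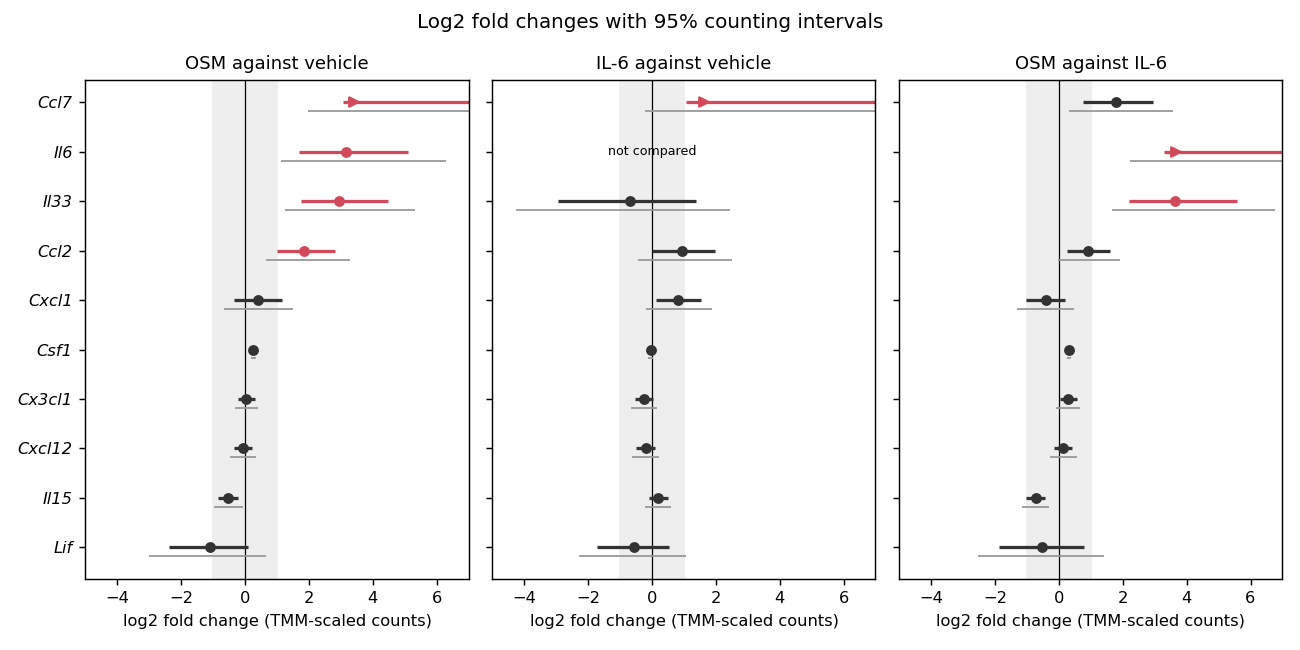
Log2 fold changes of the TMM-scaled counts in the 3 comparisons, with 95% counting intervals as thick lines and, in grey, intervals from counts divided by 2. The shaded band is within 2-fold, red marks called genes, and triangles are lower bounds against a floor of 3 counts, whose lines run to the edge. With OSM against vehicle, the intervals of Ccl7, Il6, Il33 and, barely, Ccl2 lie above the band.

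**Figure D4:**
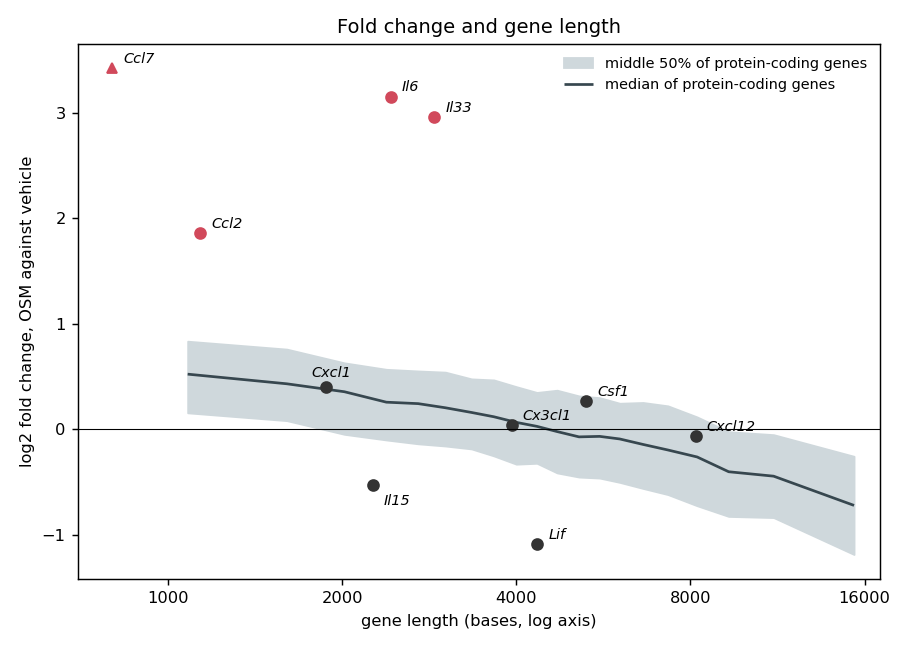
Log2 fold change with OSM against vehicle (y axis) by gene length in bases (x axis, log). It is given for the protein-coding genes compared, which all passed the filter of 10 counts, and for the 10 genes. The line is the median and the shaded area the middle 50% of genes in bins of like length, red points are called genes and the triangle is a lower bound. Ccl7, Il6 and Il33 lie far above genes of their length, and Il15 and Lif lie below them.

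ACMs treated with human IL-6 were compared with the same vehicle library, which the OSM comparison also uses. Of the 10 genes, 9 had enough counts, Ccl7 was called higher and none was called lower, against 1.77% of 15472 genes called higher and 1.74% lower. Ccl7, with 0 and 10 counts, was at least 3.11-fold higher, with a lower limit of 1.06 on the log2 scale. Any gene with 0 counts with vehicle that passed the filter of 10 counts through the IL-6 library had at least this limit, so the call was fixed by the filter and adds nothing to the counts. The call was lost with the counts divided by 2, where the lower limit was -0.23. Cxcl1, with 27 and 51 counts, had a log2 fold change of 0.82 (0.12 to 1.55), above no difference but not past 2-fold, and with the counts divided by 2 its interval included 0 (-0.19 to 1.89). Ccl2, with 14 and 29 counts, had 0.95 (-0.02 to 1.99).

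The remaining genes had log2 fold changes with IL-6 of 0.20 for Il15, -0.05 for Csf1 (-0.10 to 0.01), -0.20 for Cxcl12, -0.25 for Cx3cl1, -0.57 for Lif and -0.68 for Il33 (-2.95 to 1.39), and each of these intervals included 0. The median over the 9 genes was -0.05, against 0.00 for all genes compared. Il6 itself, with 4 and 0 counts, was not compared. In this comparison gene length was nearly unrelated to the fold change (Spearman correlation -0.07 across 9361 protein-coding genes with a mean of at least 100 counts).

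OSM and IL-6 were given at the same dose and for the same time, and their libraries were compared directly. Il6 and Il33 were called higher with OSM and none of the 10 was called lower, against 4.24% of 15544 genes called higher and 5.42% lower. Il6 was at least 12.7-fold higher (interval from log2 3.30 upward), where a gene with 0 counts with IL-6 that passed the filter was bound to be called, and Il33 was 12.5-fold higher (log2 3.64, 2.20 to 5.57). These genes were thus higher with OSM than with either of the other treatments. Ccl7, at 1.78 (0.75 to 2.95), and Ccl2, at 0.91 (0.25 to 1.60), were above no difference without passing 2-fold, and Ccl2 was at 0.44 (-0.23 to 1.13) relative to genes of like length.

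Csf1 differed by 0.31 (0.26 to 0.36) and Cx3cl1 by 0.29 (0.02 to 0.55) between OSM and IL-6. The interval of Cx3cl1 included 0 relative to genes of like length (-0.03 to 0.50) and with the counts divided by 2 (-0.09 to 0.67). Il15 was lower with OSM, at -0.73 (-1.03 to -0.43), but its interval did not lie wholly beyond 2-fold. Cxcl1 at -0.42 (-1.05 to 0.20), Cxcl12 at 0.13 (-0.16 to 0.42) and Lif at -0.52 (-1.87 to 0.78) had intervals that included 0. Relative to genes of like length, those of Cxcl1 (-0.77, -1.40 to -0.16) and Cxcl12 (0.40, 0.11 to 0.69) no longer included it. The median over the 10 genes was 0.30, against 0.00 for all genes. This comparison uses the OSM library of the first and the IL-6 library of the second, so the comparisons are not independent of each other.

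Receptor genes for these ligands ranged from 0 to 19092 counts. Of 21 receptor genes, 7 had 0 counts in all libraries, among them the CC chemokine receptors Ccr1, Ccr2 and Ccr3, the CXCL1 receptor Cxcr1, the ST2 gene Il1rl1 and the IL-15 receptor chain Il2rb. Cxcr2 had 4 counts with vehicle and 0 with the cytokines, and Cx3cr1 had 1, 0 and 0. By contrast, Il6st, the gp130 chain, had 17343 counts with vehicle, 19092 with IL-6 and 13870 with OSM, whereas the IL-6 binding chain Il6ra had 24, 8 and 14. Csf1r had 187, 166 and 209 counts, Il15ra 160, 206 and 244, Lifr 864, 805 and 729, and the CXCL12 receptors Cxcr4 and Ackr3 had 17, 31 and 13, and 279, 439 and 240. In the comparison of OSM with vehicle 9 receptor genes were compared, of which 1 was called higher and 0 lower, against 3.74% and 5.43% of all genes compared. The gene called was Osmr, the chain that pairs with gp130 to bind the OSM given and is a receptor of none of the 10 ligands, with 1023, 1199 and 2929 counts and a log2 fold change of 1.28 (1.17 to 1.38) against vehicle and 1.15 (1.05 to 1.25) against IL-6. None of the 9 was called with IL-6 against vehicle, and the medians of the 9 were -0.49 in the first comparison, 0.04 in the second and 0.03 in the comparison of the cytokines.

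Among 11 genes of gp130 cytokines, 1, Il6, was called higher with OSM against vehicle, of 5 compared (median -0.13), against 3.74% of all genes. Osm itself, Il27 and Ebi3 had 0 counts in all libraries, which allows up to 0.0975 CPM with OSM. Clcf1 had 52 counts with vehicle, 42 with IL-6 and 95 with OSM, Ctf1 had 107, 102 and 91, and Il11 had 13, 10 and 14, and none of these was called. Ctf2, with 0, 10 and 0 counts, was called higher with IL-6 and lower with OSM against IL-6 (6 and 7 compared, medians -0.29 and -0.31, against 1.77% and 5.42% of all genes). In both comparisons a gene with 0 counts in the other library that passed the filter was bound to be called, so these calls add nothing to the counts. Ctf2 also overlaps Ctf1 on the opposite strand, and its reads cannot be told from those of Ctf1 without the strand. Both calls were lost with the counts divided by 2.

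Chemokine genes beyond the 5 followed here had at most 113 counts in a library. Of 34 such genes, 18 had 0 counts in all libraries, 8 were compared for OSM against vehicle, and 0 were called higher or lower (median -0.47), against 3.74% and 5.43% of all genes. With IL-6 against vehicle, 1 of 8 was called lower (median 0.03), against 1.74% of all genes. With OSM against IL-6, 1 of 11 was called higher and 2 lower (median 0.12), against 4.24% and 5.42%. The genes called were Cxcl9, with 12 counts with vehicle, 0 with IL-6 and 11 with OSM, Cxcl14, with 4, 10 and 0, and Cxcl10, with 35, 86 and 28. Cxcl10, an interferon-inducible chemokine, was lower with OSM than with IL-6 (log2 fold change -1.76, -2.43 to -1.13), but it overlaps Art3, which had 2502 to 2962 counts, on the opposite strand. All of these calls were lost with the counts divided by 2. The calls of Cxcl9 and Cxcl14 rest on 0 counts in a library of the pair. In these comparisons such a gene was bound to be called once it passed the filter of 10 counts, so these calls add nothing to the counts.

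A list of 63 interleukin, colony-stimulating factor and TNF family ligand genes shares Il11, Cntf, Clcf1, Ctf1, Osm and Il27 with the gp130 cytokines, and 32 of its genes had 0 counts in all libraries. With OSM against vehicle, 2 of 17 were called higher and 0 lower (median -0.13), against 3.74% and 5.43% of all genes. Il17d had 25 counts with vehicle, 61 with IL-6 and 130 with OSM, which is 2.14 on the log2 scale (1.51 to 2.82), and Lta, which encodes lymphotoxin alpha, had 0, 6 and 18, with a lower limit of 1.89 that fell below 2-fold with the counts divided by 2. With IL-6 against vehicle, 0 of 15 were called (median -0.17), against 1.77% of all genes called higher and 1.74% lower. With OSM against IL-6, 1 of 18 was called, and it was lower (median 0.42), against 5.42% of all genes. This gene, Kitl, which encodes stem cell factor, had 3341, 3937 and 1924 counts and a log2 fold change of -1.17 (-1.25 to -1.10), and of -1.04 (-1.12 to -0.96) against vehicle.

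A list of 18 genes that control cytokine transcripts or the shedding of cytokines was chosen with results of these libraries known, and its counts are a description. Of these, 17 were compared and 6 were called higher with OSM against vehicle, 0 lower (median 0.47), against 3.74% and 5.43% of all genes. With IL-6 against vehicle 0 of 17 were called (median -0.04), against 1.77% higher and 1.74% lower. With OSM against IL-6 5 were called higher and 0 lower (median 0.55), against 4.24% and 5.42%. Socs3, the feedback inhibitor of gp130 signalling, had 670 counts with vehicle, 646 with IL-6 and 18194 with OSM, and differed by 4.52 on the log2 scale (4.41 to 4.63). Cebpd had 61, 112 and 1288 counts (4.16, 3.79 to 4.55), Cebpb 1307, 1329 and 4087 (1.40, 1.31 to 1.49) and Nfkbiz 44, 84 and 205 (1.98, 1.50 to 2.48), and all 3 encode transcription factors or cofactors that act on cytokine genes. Cebpd overlaps Spidr and Cebpb overlaps Peds1 on the opposite strand. The genes of 2 proteins that degrade cytokine transcripts, Zfp36, which binds AU-rich elements, and Zc3h12a, the nuclease regnase-1, had 733, 833 and 3227 counts (1.90, 1.78 to 2.01) and 73, 76 and 276 counts (1.68, 1.30 to 2.07). Rc3h1 and Rc3h2, the genes of the roquin proteins, which also promote the decay of cytokine transcripts, had lower values with OSM, -0.78 (-0.88 to -0.68) and -1.01 (-1.14 to -0.89), and were not called. Both are long genes, and long genes had lower values in this comparison. The medians of protein-coding genes were -0.45 and -0.72 at median lengths of 11138 and 15340 bases. Short genes had higher values, with medians of 0.52 and 0.43 at median lengths of 1081.5 and 1605 bases. No gene of this list, called or not, was set against genes of like length. Adam10 and Adam17, which shed CX3CL1, were not called, at 0.14 (0.04 to 0.25) and -0.10 (-0.21 to 0.00).

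Since ZFP36 binds AU-rich elements, the pentamer ATTTA was counted in the 3′ UTRs of the GENCODE M39 canonical transcripts. The density was above the median of 19715 genes, 1.38 per kb, in 8 of the 10 genes, and it was highest in Il6 at 14.1 per kb (6 in 427 bases) and in Cxcl1 at 11.8 per kb (7 in 592 bases). Ccl7 had 4.60 per kb (2 in 435 bases), Ccl2 3.64 (1 in 275), Il15 3.24 (14 in 4317) and Lif 2.20 (7 in 3180). Il33 had 2.01 and Csf1 1.89, whereas Cxcl12 with 0.771 and Cx3cl1 with 0.534 were below the median. The densities of Ccl7 and Ccl2 thus rest on very few pentamers in short 3′ UTRs. A window of 30 bases with at least 3 ATTTA was found in 2.99% of all genes and in Cxcl1 and Lif among the 10. Both windows are shown from GRCm39, with ATTTA in capitals, since they are the densest runs of this element in the set.
Cxcl1 (chr5:91040461-91040490, plus strand): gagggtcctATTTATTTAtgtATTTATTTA
Lif (chr11:4222414-4222443, plus strand): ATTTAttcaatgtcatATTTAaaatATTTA

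The heptamer TTATTTA was present in 28.2% of all 3′ UTRs and in 6 of the 10, Ccl2, Ccl7, Il33, Cxcl1, Cx3cl1 and Lif. No cut was set for a high density of ATTTA. In order of density, Il6, Cxcl1, Ccl7 and Ccl2 came first, and all but Cxcl1 were called higher with OSM against vehicle. Il15 and Lif, which were not called, came before Il33, which was. A relation of density to the calls was not tested.

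The libraries had the transcripts of cardiomyocytes, and few of other cell types. All 10 cardiomyocyte markers were detected, at a summed 31268 CPM with vehicle, 32343 with IL-6 and 37365 with OSM, with Myh6 alone at 187212 to 215067 counts. All 10 endothelial markers were detected at 46.8, 52.0 and 59.7 CPM in sum. The rise of this sum with OSM was mostly that of Eng, with 161, 247 and 534 counts. Pecam1 had 203, 236 and 311 counts, Cdh5 280, 273 and 332, and Tie1 101, 118 and 110, before scaling for depth. Of 10 fibroblast markers, 10, 9 and 7 were detected at 17.2, 17.7 and 14.5 CPM, with Col1a1 at 0 with both cytokines and Tcf21 and Postn at 0 with OSM. Dcn had 49, 48 and 131 counts, whereas Ddr2 had 28, 90 and 20, Col1a2 14, 41 and 6, and Gsn 261, 233 and 230. Of 10 macrophage markers, 4 to 5 were detected at 23.7, 24.0 and 54.4 CPM, and C1qa, C1qb, C1qc, Fcgr1 and Ptprc had 0 counts in every library. The macrophage sum moved with OSM through the lysosomal gene Cd68, with 382, 448 and 1419 counts. Csf1r had 187, 166 and 209 counts, Lyz2 13, 4 and 31, Adgre1 8, 0 and 6, and Mrc1 2, 14 and 8. The 10 smooth muscle and pericyte markers, 8 to 10 of them detected, summed to 207, 236 and 110 CPM, mostly from Abcc9, a potassium channel subunit that cardiomyocytes also express. The fall of this sum with OSM was that of Abcc9, with 4210, 5145 and 2004 counts. Of the others, Acta2 had 677, 721 and 935 counts, Cspg4 111, 219 and 290, Rgs5 73, 52 and 46, and Notch3 30, 24 and 10.

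Mesothelial markers, 4 to 5 of 6 detected, had 33, 80 and 34 counts in all, and T cell, neutrophil and adipocyte markers had at most 4 counts per list. With OSM, Ccl2, Ccl7, Il6 and Il33 were at 1.95, 1.23, 1.36 and 1.79 CPM. These values of single genes can be set beside the low marker sums of other cells, given in CPM above. The part of those cells in the results was not tested. Xist, the transcript of the inactive X chromosome, had 753 counts with vehicle, 725 with IL-6 and 279 with OSM and was called lower with OSM against vehicle (-1.67, -1.88 to -1.47) and against IL-6. The Y-linked genes Ddx3y, Eif2s3y, Kdm5d and Uty had counts in all libraries and were not called, so the pools held RNA of both sexes. With OSM against vehicle, Uty (-0.85, -1.06 to -0.64), Kdm5d (-0.69, -0.95 to -0.44) and Ddx3y (-0.52, -0.62 to -0.42) were also lower. Eif2s3y was at 0.19 (0.07 to 0.31). Xist and the Y-linked genes were not set against genes of like length. The part of the pools' sex ratio in the results was not tested.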

How the data were processed

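Poly-A RNAseq libraries of ACMs, 1 each for vehicle, IL-6 and OSM, were analysed from the deposited table. According to the submitters' processing notes, fastp, HISAT2 2.2.1, featureCounts 2.0.6 and edgeR 4.0.16 were used with mm39 (GRCm39), and the sources used here do not give the strand setting. The authors deposited counts per gene as whole numbers without normalization. The authors also deposited FPKM values, which are the counts divided by gene length and by 1 constant per library. Counts of 0 unmatched columns were set aside.

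Groups were taken from the sample labels. TMM factors were computed per pair of libraries with edgeR 4.0.16 in R 4.3.3. Scaled counts were divided and the ratio put on the log2 scale. Its 95% interval is the Clopper-Pearson interval for the share of the pair's counts that fell in the first library, computed with SciPy 1.17.1 over genes with at least 10 counts in the pair. A count of 0 was set to 3 and the fold written as a bound, except where neither library exceeded 3 counts, where no fold is given. A gene was called when the whole interval lay beyond 2-fold. Levels carry exact 95% Poisson intervals. The calling rule was tested on simulated data. With 1 library per condition no test across replicates and no P-value is given. In CPM, 3 counts are 0.120 (vehicle), 0.114 (IL-6) and 0.0975 (OSM).

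The running median of fold changes by gene length was taken over 501 protein-coding genes, with the deposited gene lengths. Upstream sequences and 3′ UTRs were read from GRCm39 with GENCODE M39. BLAST 2.17.0 found no stretch of at least 50 bases at 90% identity elsewhere in the genome for any of the 10 transcripts. An overlapping gene on the opposite strand had 0 counts for Ccl2 (Gm17268) and at most 2 for Il15 (ENSMUSG00000119975).

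The alternatives were DESeq2 1.42.0 size factors, total counts, FPKM ratios, no filter on low counts, other limits of the call, the exact test of edgeR at a biological coefficient of variation (BCV) set to 0.2 or 0.4, a prior count of 1, a correction for gene length, and intervals from counts divided by 2, the last chosen after seeing the data. The 10 genes, the lists of receptors, gp130 cytokines, other chemokines, other ligands, regulators, sex-linked genes and cell type markers were chosen with earlier results of these data known. All 10 genes are named, and of the other lists mainly the genes called in a comparison, up to 6 a list. Receptors, gp130 cytokines, Adam10, Adam17, Rc3h1, Rc3h2, Y-linked genes, cell type markers such as Eng, Dcn and Abcc9, and neighbours of Ccl2 that are named beyond this rule were chosen after their values were seen.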

Additional observations from a re-analysis of the deposited data

How the results depend on the processing

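For OSM against vehicle, the 4 genes called higher were the same with DESeq2 size factors, with FPKM ratios, without a filter on low counts, by the point estimate and by edgeR's exact test with an assumed BCV of 0.2. Several of these settings could hardly differ. All 10 genes passed the filter, so removing it could not change a call, and the point estimate could not lose a called gene. DESeq2 size factors and FPKM ratios gave nearly the TMM scale, with Ccl2 at 1.87 and 1.86 against 1.86. Ccl2 was lost, leaving 3, with total counts, with the gene length correction and with the counts divided by 2. Only Ccl7 (1 gene) was left when the interval had to lie beyond 4-fold or with an assumed BCV of 0.4. By the point estimate 1 gene was lower (Lif), and with an interval on one side of no change 1 was lower (Il15) and 5 were higher. For IL-6 against vehicle, the call of Ccl7 was lost (0 genes) beyond 4-fold, with either assumed BCV and with the counts divided by 2, an interval above no change gave 2 genes (Ccl7 and Cxcl1), and the median log2 fold change was -0.12 without a filter, which adds Il6. For OSM against IL-6, an interval on one side of no change gave 6 higher (Ccl2, Ccl7, Il6, Il33, Cx3cl1 and Csf1) and 1 lower (Il15), and an assumed BCV of 0.4 left 1 higher (Il6). No fold change of a called gene changed sign, whereas those of Cxcl12 (-0.07) and Cx3cl1 (0.04) with OSM became 0.22 and -0.04 with the gene length correction. The causes were not tested beyond what each setting removes by construction.

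Over all genes of OSM against vehicle, 581 were higher and 844 lower, against 337 and 487 with the counts divided by 2, 127 and 129 beyond 4-fold, 1565 and 2034 by the point estimate, 5186 and 5137 with an interval on one side of no change, and 43 and 11 with an assumed BCV of 0.4. For IL-6 against vehicle, 274 and 269 became 43 and 66 with the counts divided by 2, 34 and 62 beyond 4-fold, 1033 and 1025 by the point estimate, 3028 and 2953 on one side of no change, 112 and 125 with an assumed BCV of 0.2, and 1 and 0 with 0.4. For OSM against IL-6, 659 and 843 became 358 and 462, 151 and 124, 1557 and 1981, and 5160 and 5156 in the same order of settings, and 57 and 20 with an assumed BCV of 0.4.

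No paired analysis was possible because each condition had 1 library, and leaving out a replicate was not possible for the same reason. Ccl2, Ccl7, Il6, Il33, Cxcl1 and Lif had at most 60 counts in any library, and their intervals are wide at this depth. The intervals of Csf1, Cxcl12, Cx3cl1 and Il15 exclude 2-fold in each comparison with vehicle. Relative to genes of like length, that of Il15 with OSM (-1.14 to -0.51) no longer does.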
